A study of Mus musculus with 9 samples.

Results

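The 50 genes described here are the core genes of the cell cycle and of mitosis, measured by RNA-seq in endothelial cells (ECs) sorted from the bone marrow (BM) of mice. They were taken by gene name from the 46078 rows of the read count table, and all 50 were found. The cells were CD45-Ter119-CD31+ ECs of wild type mice on the B6 strain, untreated as far as the labels say, split by flow cytometry on Sca-1, a surface protein encoded by Ly6a. The 4 Sca-1+ libraries are called 7, 13, 15 and 19 here and the 5 Sca-1- libraries 8, 10, 14, 16 and 22, after the last number in each label. The term wt is in the labels of 8, 15, 16 and 19. The term CD452 is in those of 13, 14 and 22, and in a shorter form in that of 10. The label of 7 holds neither, and the study's text describes the mice as normal wild type. Libraries 15 and 16 carry the same mouse number, the age of the mice is not given in the sources used here, and nothing states whether the other libraries came from separate mice, so p-values measure the spread between these libraries.

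A dividing cell passes through G1, when D-type cyclins with Cdk4 or Cdk6 and then E-type cyclins with Cdk2 release the E2F transcription factors, and through S phase, when origins licensed by Cdc6, Cdt1 and the MCM helicase are fired. The B-type cyclins with Cdk1 then start mitosis, in which kinetochores, motor proteins and checkpoint proteins part the chromosomes before the cell is cleaved. Endothelium of adult vessels is mostly quiescent, and inhibitors of the cyclin-dependent kinases such as p21 (Cdkn1a) and p27 (Cdkn1b) act as brakes. The comparison asks how the Sca-1+ and Sca-1- fractions differ in these genes. The study places Sca-1 high ECs in arterioles and Sca-1 low ECs in sinusoids, a placement that was not tested here.

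Total counts were between 23058385 and 24657204 per Sca-1+ library and between 21581653 and 25959818 per Sca-1- library, at which 3 counts correspond to 0.0996 to 0.209 CPM (counts scaled to library size, here with edgeR's TMM factors), a limit that covers counting error only. The endothelial label was not borne out equally in both fractions. The 15 endothelial markers, such as Cdh5 and Kdr, summed to 7289 to 9106 CPM in Sca-1+ libraries and to 762 to 2605 CPM in Sca-1- libraries. Of the 15, 14 were higher in Sca-1+ cells, all but Esam. Esam overlapped, and it made up 1271 of 1656 CPM in library 8 and 2376 of 2605 CPM in library 10. Cdh5 was at 235 to 297 CPM in Sca-1+ libraries and at 2.44 to 13.15 CPM in Sca-1- libraries. The study stained Emcn on sinusoids and not on arterioles. Here Emcn was at 618 to 969 CPM in Sca-1+ libraries and at 4.26 to 27.9 CPM in Sca-1- libraries. The vessel type of the fractions was not tested. The 15 megakaryocyte markers were all lower in Sca-1+ cells, and their sum was 103 to 182 CPM against 24510 to 96030 CPM. Of the Sca-1+ sums, Vwf alone made up 52.9 of 107, 60.8 of 149, 46.0 of 103 and 143 of 182 CPM in libraries 7, 13, 15 and 19. Erythroid markers (9 of 12 lower) summed to 257 to 401 against 2014 to 4562 CPM, and general leukocyte markers (8 of 10 lower) to 218 to 274 against 2869 to 5451 CPM. Lcp1 (97.0 to 184 CPM) and Arhgdib (78.9 to 113 CPM) held most of the leukocyte sum in Sca-1+ libraries. Lcp1 and Cd52 overlapped between the fractions and were not called. The leukocyte gene Ptprc, which encodes the CD45 that the sort excluded, was at 0.818, 0, 0 and 2.56 CPM in Sca-1+ libraries 7, 13, 15 and 19 and at 17.2 to 47.8 CPM in every Sca-1- library, while the megakaryocyte gene Itga2b was still at 9.87 to 11.7 CPM in the Sca-1+ libraries. The marker sums given above, though not each single marker, differed between the fractions alongside the differences given below. Their part in the results was not tested. Each label also opens with a running number, and since the fractions hold separate stretches of these numbers, any batch tied to them cannot be told apart from the fraction. In such bulk libraries, fewer cells of a type and less RNA per cell cannot be told apart either.

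All 50 members passed the filter on low counts, and they were mostly lower in Sca-1+ cells. With edgeR's quasi-likelihood test at an adjusted p under 0.05, 39 members were lower in Sca-1+ cells, where 21.4% of the 15937 genes tested were lower. Another 3 members (Ccnd1, Cdk2 and Cdkn1a) were higher, against 23.3% of all genes, and 8 passed in neither direction. With TMM scaling, every Sca-1- library was above every Sca-1+ library for 35 members (18.8% of all genes). The reverse held for 4 members, Ccnd1, Cdk2, Cdkn1a and Pcna (24.8% of all genes). Some of the 35 overlapped with library size only, as given below. The median log2 fold change of Sca-1+ over Sca-1- was -2.29 over the members and 0.07 over all genes tested. With a scaling that sets the endothelial markers equal in all libraries, a log2 shift of -4.37 in the median of all genes, the 3 higher members turned lower as well.

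**Figure D1:**
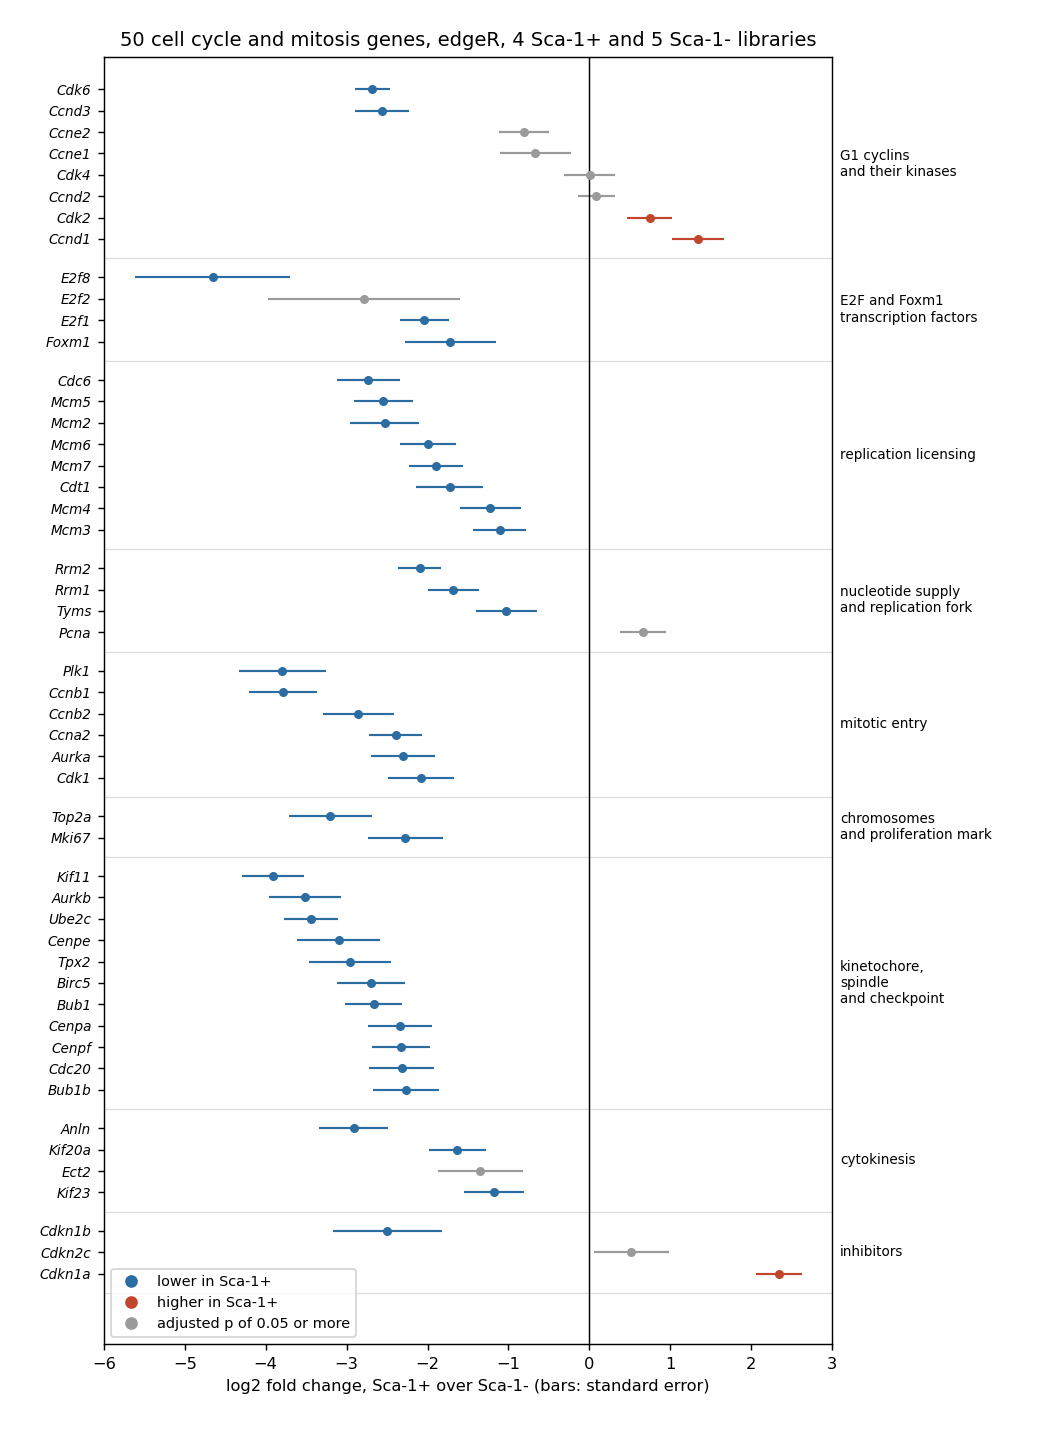
Log2 fold change of Sca-1+ over Sca-1- (x axis) for each of the 50 members (y axis, grouped by role), from edgeR with TMM scaling, with bars for the standard error and colours for the call at an adjusted p under 0.05 (the values of E2f2 and E2f8 depend on a Sca-1+ library at 0 counts). The mitotic groups lie left of 0 throughout, while Ccnd1, Cdk2 and Cdkn1a lie right of 0 with this scaling and left of it when the endothelial markers are set equal.

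Of the 8 cyclins and kinases of G1, 2 were lower (Ccnd3 and Cdk6) and 2 higher (Ccnd1 and Cdk2), shares near those of all genes tested (21.4% and 23.3%), and the median log2 fold change was -0.33. Ccnd3 (cyclin D3, chromosome 17, 47505051 to 47599691), a D-type cyclin known from megakaryocytes and other blood cells, was measured at 146, 157, 135 and 155 CPM in Sca-1+ libraries 7, 13, 15 and 19, and at 1313, 1186, 729, 527 and 619 CPM in Sca-1- libraries 8, 10, 14, 16 and 22. The fractions lay far apart, and the log2 fold change was -2.56 (standard error 0.33, edgeR adjusted p = 0.00022). The Sca-1- libraries 8 and 10 were the highest with TMM scaling, an order that for library 10 depends on the scaling. Cdk6 (chromosome 5, 3341485 to 3531008), a kinase partner of the D-type cyclins that is best known from blood cells, was at 7.36, 8.0, 6.53 and 6.70 CPM and, in the same order of libraries as before, at 45.5, 60.2, 45.9, 38.9 and 39.8 CPM. Its log2 fold change was -2.69 (standard error 0.22, edgeR adjusted p = 2.3e-05), without overlap between the fractions.

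Ccnd1 (cyclin D1, chromosome 7, 144929931 to 144939925), the D-type cyclin that growth factor signals induce, ran the other way. Its level was 39.2, 27.2, 39.6 and 37.8 CPM in the Sca-1+ libraries and 22.9, 14.3, 15.8, 7.01 and 10.7 CPM in the Sca-1- libraries. The fractions did not overlap, and the log2 fold change of 1.35 (standard error 0.32, edgeR adjusted p = 0.0068) turned to -3.14 when the endothelial markers were set equal. Ccnd2 (cyclin D2) overlapped, at 164 to 286 and 150 to 235 CPM (log2 fold change 0.09, standard error 0.23). Cdk4, the other kinase partner, overlapped too, at 166 to 242 CPM in Sca-1+ libraries, whereas the Sca-1- libraries held 124 and 126 CPM (8 and 10) or 264 to 286 CPM (14, 16 and 22). Cdk2, the kinase of the E-type cyclins, was at 105 to 112 CPM against 39.4 to 96.1 CPM, a log2 fold change of 0.75 (standard error 0.28, edgeR adjusted p = 0.049) that was -3.50 when the endothelial markers were set equal. The call for Cdk2 was lost in 12 of the 20 alternative settings, among them a block for libraries 15 and 16 of the same mouse number (edgeR adjusted p = 0.061). The E-type cyclins passed in neither direction, with Ccne1 at a log2 fold change of -0.67 (standard error 0.44, edgeR adjusted p = 0.24) and Ccne2 at -0.81 (standard error 0.31, edgeR adjusted p = 0.056).

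**Figure D2:**
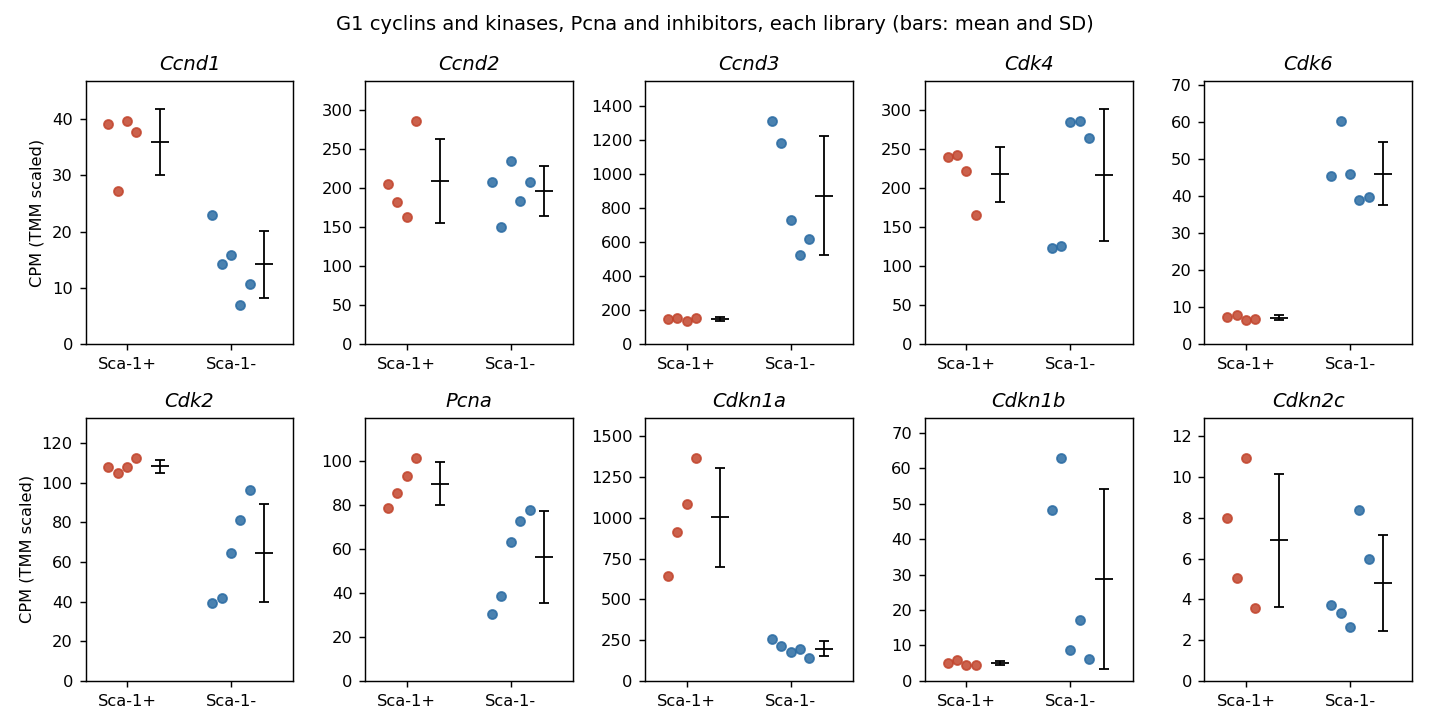
Level in CPM (y axis, starting at 0, TMM scaled) of 10 members in each of the 4 Sca-1+ and 5 Sca-1- libraries, with black bars for the mean and SD of each fraction. With this scaling, Ccnd3, Cdk6 and Cdkn1b are higher in all Sca-1- libraries. Ccnd1, Cdk2, Pcna and Cdkn1a are higher in all Sca-1+ libraries with this scaling, which reverses for those 4 genes when the endothelial markers are set equal.

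The make-up of the D-type cyclins could be read within each library, where no scaling between libraries enters. Of the reads per kilobase on Ccnd1, Ccnd2 and Ccnd3 together, Ccnd3 took 31.5% to 41.6% in Sca-1+ libraries and 74.1% to 87.7% in Sca-1- libraries. Ccnd2 took 42.3% to 54.2% and 10.4% to 24.0%, and Ccnd1 took 13.5% to 20.4% and 1.84% to 3.02%. None of these ranges overlapped between the fractions. The ratio of Cdk6 to Cdk4 per kilobase was 0.0068 to 0.0094 in Sca-1+ libraries and 0.0316 to 0.111 in Sca-1- libraries, again without overlap. These ratios were chosen after the values were seen and carry no test.

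Among the transcription factors of the cycle, E2f1, E2f8 and Foxm1 were lower in Sca-1+ cells (21.4% of all genes tested were) and E2f2 did not pass. E2f8 (chromosome 7, 48866429 to 48881596), an atypical E2F that represses E2F targets late in S phase, was at 2.08, 0.885, 1.21 and 0 CPM in Sca-1+ libraries and at 7.27, 17.0, 39.8, 27.6 and 41.0 CPM in Sca-1- libraries. The fractions did not overlap, and the library at 0 counts, Sca-1+ 19, allows a level of up to 0.116 CPM. The fitted log2 fold change of -4.66 (standard error 0.96, edgeR adjusted p = 0.0029) depends on that library and on the low counts of the other 3. E2f1, an activator of S phase genes, was at 3.14 to 5.42 CPM against 13.1 to 25.9 CPM (log2 fold change -2.04, standard error 0.30). The values of E2f2, another activator, were spread within the Sca-1- fraction, at 4.75, 2.10, 0.636, 13.4 and 10.7 CPM, and it had 0 counts in Sca-1+ library 13 (edgeR adjusted p = 0.08). Foxm1, which drives genes of G2 and mitosis, was at 2.79, 1.29, 1.04 and 5.54 CPM and at 5.41, 8.94, 7.47, 6.77 and 15.3 CPM. The fractions overlapped for Foxm1, and its call (log2 fold change -1.72, edgeR adjusted p = 0.03) was lost without Sca-1+ library 7, 13 or 15 or Sca-1- library 22, at adjusted p of 0.067, 0.078, 0.076 and 0.067.

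Licensing factors were lower in Sca-1+ cells for 8 of 8 members (21.4% of all genes tested), with a median log2 fold change of -1.94. Mcm5 (chromosome 8, 75109569 to 75128439), a subunit of the MCM helicase, was at 27.5, 27.0, 22.6 and 20.6 CPM in Sca-1+ libraries and at 65.1, 87.7, 166, 196 and 200 CPM in Sca-1- libraries. The lowest values of the Sca-1- fraction were those of libraries 8 and 10, and these were still above every Sca-1+ library (log2 fold change -2.55, standard error 0.37, edgeR adjusted p = 0.00038). Cdc6, which loads the helicase on origins, showed a log2 fold change of -2.73 (standard error 0.39), and its partner Cdt1 of -1.73 (standard error 0.41). The other helicase subunits ranged from -2.53 for Mcm2, through -1.99 for Mcm6 and -1.89 for Mcm7, to -1.22 for Mcm4 and -1.11 for Mcm3. For Mcm3 and Mcm4 the fractions overlapped. Mcm3 lost its call without Sca-1+ library 7, 15 or 19 (edgeR adjusted p = 0.052, 0.060 and 0.051), and Mcm4 without Sca-1+ library 13, 15 or 19 (edgeR adjusted p = 0.063, 0.056 and 0.055).

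Nucleotide supply and the replication fork were split. Rrm2 (chromosome 12, 24708241 to 24714146), the S phase subunit of ribonucleotide reductase, was at 38.5, 34.2, 31.5 and 35.4 CPM against 95.2, 103, 171, 200 and 177 CPM (log2 fold change -2.10, standard error 0.27, edgeR adjusted p = 0.00020). Rrm1, its partner subunit, was lower by a log2 fold change of -1.68 (standard error 0.32). Both genes separated the fractions with TMM scaling. With library size only Rrm1 overlapped, at 1926 counts in Sca-1+ library 7 and 1890 in Sca-1- library 8, whose total was larger. Pcna (chromosome 2, 132249162 to 132253314), the sliding clamp of DNA polymerases that also serves in DNA repair, was at 78.6, 85.5, 92.9 and 101 CPM in Sca-1+ libraries and at 30.5, 38.4, 62.9, 72.6 and 77.5 CPM in Sca-1- libraries. The fractions of Pcna did not overlap, but its log2 fold change of 0.67 (standard error 0.29) missed the threshold (edgeR adjusted p = 0.082) and was -3.59 when the endothelial markers were set equal. Within libraries, the ratio of Mcm5 to Pcna per kilobase was 0.122 to 0.210 in Sca-1+ cells and 1.28 to 1.63 in Sca-1- cells. Tyms, which makes thymidylate, overlapped between the fractions at 22.6 to 38.1 and 27.9 to 92.5 CPM, and its call (log2 fold change -1.03, edgeR adjusted p = 0.048) was lost in 13 of the 20 settings, including the block for libraries 15 and 16 (edgeR adjusted p = 0.063) and the fits without any 1 library except Sca-1- 8 or 10 (edgeR adjusted p = 0.058 to 0.12).

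Genes of mitotic entry were lower in Sca-1+ cells for 6 of 6 members (21.4% of all genes tested). With TMM scaling there was no overlap between the fractions (18.8% of all genes), and the median log2 fold change was -2.62. With library size only, Cdk1 and Aurka overlapped. Sca-1+ library 7 held 643 and 311 counts of them, and Sca-1- library 8, of larger total, held 497 and 296. Ccnb1 (cyclin B1, chromosome 13, 100778650 to 100786570), which activates Cdk1 at the start of mitosis, was at 5.04, 5.04, 4.04 and 3.14 CPM in Sca-1+ libraries and at 22.9, 40.9, 79.7, 75.5 and 79.3 CPM in Sca-1- libraries. Plk1 (chromosome 7, 122159439 to 122169873), a kinase needed for spindle assembly and cytokinesis, was at 5.90, 5.35, 2.25 and 1.55 CPM against 20.8, 40.4, 66.0, 73.5 and 60.7 CPM. In both genes library 8 was the lowest of the Sca-1- libraries and library 19 the lowest of the Sca-1+ libraries. The log2 fold changes were -3.79 (standard error 0.42, edgeR adjusted p = 0.00010) and -3.80 (standard error 0.54, edgeR adjusted p = 0.00034). Ccnb2, Ccna2, Aurka and Cdk1 followed at -2.85, -2.39, -2.31 and -2.08. Ccnb1 differed more than the S phase helicase did, with a ratio of Ccnb1 to Mcm6 per kilobase of 0.0439 to 0.0774 in Sca-1+ libraries and 0.186 to 0.257 in Sca-1- libraries.

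The proliferation antigen Mki67 (Ki-67, chromosome 7, 135689784 to 135716361) was at 7.05, 4.94, 2.49 and 4.45 CPM in Sca-1+ libraries and at 9.97, 16.9, 17.1, 34.1 and 36.4 CPM in Sca-1- libraries. Top2a, the topoisomerase that untangles sister chromatids, was at 9.68, 4.22, 12.4 and 5.15 CPM against 23.9, 57.7, 82.9, 76.7 and 120 CPM. Neither gene overlapped between the fractions with TMM scaling, and the log2 fold changes were -2.27 (standard error 0.47, edgeR adjusted p = 0.0028) and -3.20 (standard error 0.51, edgeR adjusted p = 0.00069). With library size only, Mki67 overlapped. It had 207 counts in Sca-1+ library 7 and 166 in Sca-1- library 8, whose total was larger.

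Kinetochore, spindle and checkpoint genes were lower in Sca-1+ cells for 11 of 11 members (21.4% of all genes tested). They were again without overlap with TMM scaling (18.8% of all genes), with log2 fold changes from -3.91 to -2.26. With library size only, Cdc20 overlapped (624 counts in Sca-1+ library 7, 554 in Sca-1- library 8). So did Bub1b (275 counts in Sca-1+ library 15, 262 in Sca-1- library 8). Kif11 (chromosome 19, 37376403 to 37421859), the kinesin that pushes the spindle poles apart, was at 3.31, 3.06, 2.66 and 3.45 CPM in Sca-1+ libraries and at 25.9, 38.1, 30.9, 63.8 and 75.4 CPM in Sca-1- libraries (log2 fold change -3.91, standard error 0.38, edgeR adjusted p = 5.0e-05). Ube2c (chromosome 2, 164769898 to 164778822), the ubiquitin-conjugating enzyme of the anaphase-promoting complex, was at 6.78, 7.08, 5.97 and 6.78 CPM against 35.4, 54.8, 85.6, 85.2 and 100 CPM (log2 fold change -3.44, standard error 0.33, edgeR adjusted p = 4.7e-05). Both genes were nearly level over the Sca-1+ libraries and varied more over the Sca-1- libraries, with 8 the lowest. Aurkb and Birc5, kinase and survivin subunits of the chromosomal passenger complex, were lower by -3.52 and -2.70 on the log2 scale. The kinetochore proteins Cenpa, Cenpe and Cenpf showed log2 fold changes of -2.34, -3.10 and -2.32, and the checkpoint kinases Bub1 and Bub1b of -2.67 and -2.26. Tpx2, which nucleates spindle microtubules, was at -2.96, and Cdc20, which the checkpoint holds back from the anaphase-promoting complex, at -2.32.

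The promoters of the 2 mitotic genes and the 1 replication gene with the smallest p that hold a searched motif are shown, since these members moved together and their classes are known to share short promoter motifs. The 250 bases before the start that RefSeq gives each gene are printed 5′ to 3′ on the gene's own strand (the plus strand for all 3), from RefSeq on GRCm38.p6, at chr2:164769679-164769928, chr19:37376132-37376381 and chr12:24708004-24708253. GENCODE, whose gene positions are used above, starts Ube2c and Rrm2 inside the printed stretch and Kif11 after it. Capitals mark matches to CCAAT (the NF-Y box) or TTTGAA (the cell cycle genes homology region, CHR) on either strand, so that ATTGG and TTCAAA are matches on the other strand.
Ube2c: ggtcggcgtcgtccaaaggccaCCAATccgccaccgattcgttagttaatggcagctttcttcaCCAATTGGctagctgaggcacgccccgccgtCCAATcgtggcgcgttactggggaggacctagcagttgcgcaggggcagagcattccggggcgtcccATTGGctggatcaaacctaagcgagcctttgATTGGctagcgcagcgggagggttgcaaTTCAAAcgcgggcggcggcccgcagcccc
Kif11: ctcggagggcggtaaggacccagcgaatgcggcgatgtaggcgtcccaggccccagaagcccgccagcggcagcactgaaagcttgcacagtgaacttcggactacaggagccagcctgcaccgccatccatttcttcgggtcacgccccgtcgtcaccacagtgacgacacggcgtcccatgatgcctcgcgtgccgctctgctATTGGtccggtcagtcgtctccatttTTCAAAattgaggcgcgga
Rrm2: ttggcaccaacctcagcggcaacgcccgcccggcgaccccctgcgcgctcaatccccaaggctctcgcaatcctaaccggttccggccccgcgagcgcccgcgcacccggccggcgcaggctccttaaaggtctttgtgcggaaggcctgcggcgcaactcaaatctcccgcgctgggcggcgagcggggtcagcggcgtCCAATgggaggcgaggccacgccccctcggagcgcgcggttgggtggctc
In Ube2c, 6 CCAAT matches, 2 of which overlap in the run CCAATTGG, lie upstream of a CHR match that starts 29 bases before the RefSeq start. In Kif11 a CCAAT match starts 45 bases and a CHR match 19 bases before the RefSeq start, and in Rrm2 a CCAAT match starts 50 bases before it. The RefSeq table holds windows (250 bases before to 50 after the start) for 41 of the 50 members, and Aurkb, Ccna2, Ccnd1, Ccnd2, Ccne2, Foxm1, Kif20a, Mcm4 and Tpx2 are the other 9. Of the 20 windows of mitotic members (19 genes), 80% held a CHR match and 90% a CCAAT match, where 17.9% and 37.4% of all 32851 windows did. CCAAT matches were nearly as frequent in the 16 windows of replication and E2F genes (75%), whereas CHR matches there (18.8%) were near the share of all windows. The E2F letters TTTCCCGC or TTTGGCGC were in 43.8% of these 16 windows and in 1.57% of all windows. Windows of G1 and inhibitor members (11 windows) held a CCAAT match in 36.4%. These matches describe letters and not binding.

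Cytokinesis genes were lower in 3 of 4 members, where 21.4% of all genes tested were. Anln (anillin), which organises the contractile ring, was at 1.36 to 3.95 CPM against 10.3 to 29.1 CPM (log2 fold change -2.91, standard error 0.43, edgeR adjusted p = 0.00045). Kif20a and Kif23, kinesins of the midzone between the parting chromosomes, were lower by -1.63 and -1.18 on the log2 scale, without overlap with TMM scaling. With library size only both overlapped, at 725 and 246 counts in Sca-1+ library 7 and 430 and 163 in Sca-1- library 8. For Kif23 the margin was narrow, 8.94 CPM in the highest Sca-1+ library against 9.38 CPM in the lowest Sca-1- library, and its call was lost without Sca-1+ library 13 or 19 or Sca-1- library 22 (edgeR adjusted p = 0.075, 0.072 and 0.060). Ect2, which activates RhoA at the cleavage site, overlapped and missed the threshold (log2 fold change -1.35, standard error 0.53, edgeR adjusted p = 0.060).

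The 3 inhibitors went in different directions. Cdkn1a (p21, chromosome 17, 29090976 to 29100727), the inhibitor that p53 induces, was at 646, 912, 1087 and 1368 CPM in Sca-1+ libraries and at 260, 215, 179, 196 and 140 CPM in Sca-1- libraries. It had the highest level per kilobase of all members in Sca-1+ cells, with a mean of 282 CPM per kilobase, and its log2 fold change of 2.34 (standard error 0.28, edgeR adjusted p = 0.00015) was -2.12 when the endothelial markers were set equal. Cdkn1b (p27, chromosome 6, 134920401 to 134925513), a brake of Cdk2 in resting cells, was at 5.08, 6.03, 4.59 and 4.57 CPM against 48.2, 63.0, 8.87, 17.2 and 6.31 CPM. With TMM scaling all Sca-1- libraries were above all Sca-1+ libraries. With library size only, Sca-1+ library 13 (177 of 24112301 counts) was above Sca-1- library 22 (155 of 21581653). Libraries 8 and 10 stood far above the other 3. The call (log2 fold change -2.50, standard error 0.67, edgeR adjusted p = 0.012) missed the threshold with limma voom (limma adjusted p = 0.059). The ratio of Cdkn1a to Cdkn1b per kilobase was 163 to 384 in Sca-1+ libraries and 4.38 to 28.5 in Sca-1- libraries. Cdkn2c (p18), an inhibitor of Cdk4 and Cdk6, overlapped at 3.60 to 10.9 and 2.63 to 8.40 CPM (log2 fold change 0.52, standard error 0.46, and -3.79 when the endothelial markers were set equal).

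Per kilobase, the members of the highest mean level in Sca-1+ cells after Cdkn1a were Cdk4 (67.1 CPM per kilobase) and Pcna (37.3), and in Sca-1- cells they were Ccnd3 (99.7), Ccnb2 (75.0) and Cdk4 (66.8). The lowest in both fractions was the large kinetochore gene Cenpf, at 0.159 and 0.798 CPM per kilobase.

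The members also varied among libraries of one fraction. The 23 members of mitosis (from mitotic entry to cytokinesis) summed to 250, 200, 210 and 152 CPM in Sca-1+ libraries 7, 13, 15 and 19, and to 567, 906, 1406, 1600 and 1708 CPM in Sca-1- libraries 8, 10, 14, 16 and 22. With library size only the sums were 304, 244, 247 and 171 CPM and, in the same order, 380.5, 525.5, 1389, 1857 and 1944 CPM. Libraries 7 and 8 then lay much closer. Library 8 was the lowest Sca-1- library for 38 of the 50 members, and library 22 or 16 the highest for 23 and 17. The megakaryocyte marker sum of these libraries ran differently, at 79780, 96030, 50020, 24510 and 33450 CPM, and the erythroid sum was 2566, 3218, 3856, 4562 and 2014 CPM. Genes of the erythroid sum differed in order, with Car1 at 305, 340, 1349, 1867 and 574 CPM and Hba-a1 at 942, 1585, 541, 269 and 275 CPM. TMM factors of libraries 8 and 10 (0.671 and 0.581) lay apart from those of the other Sca-1- libraries (0.988 to 1.16), and with library size as the only scaling library 8 was still the lowest Sca-1- library for 33 members. Library 22 also had the highest sum of B and plasma cell markers (5 of 7 tested lower in Sca-1+ cells and 1 higher), 327 CPM against 17.0 to 86.9 CPM in the other Sca-1- libraries. In Sca-1+ cells library 7 was the highest for 24 members and library 19 the lowest for 20, and library 19 stood apart in neutrophil and myeloid progenitor markers (3 of 10 lower in Sca-1+ cells), at 758 CPM against 9.32 to 61.6 CPM in the other 3. The part of markers and scaling in this variation was not tested.

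**Figure D3:**
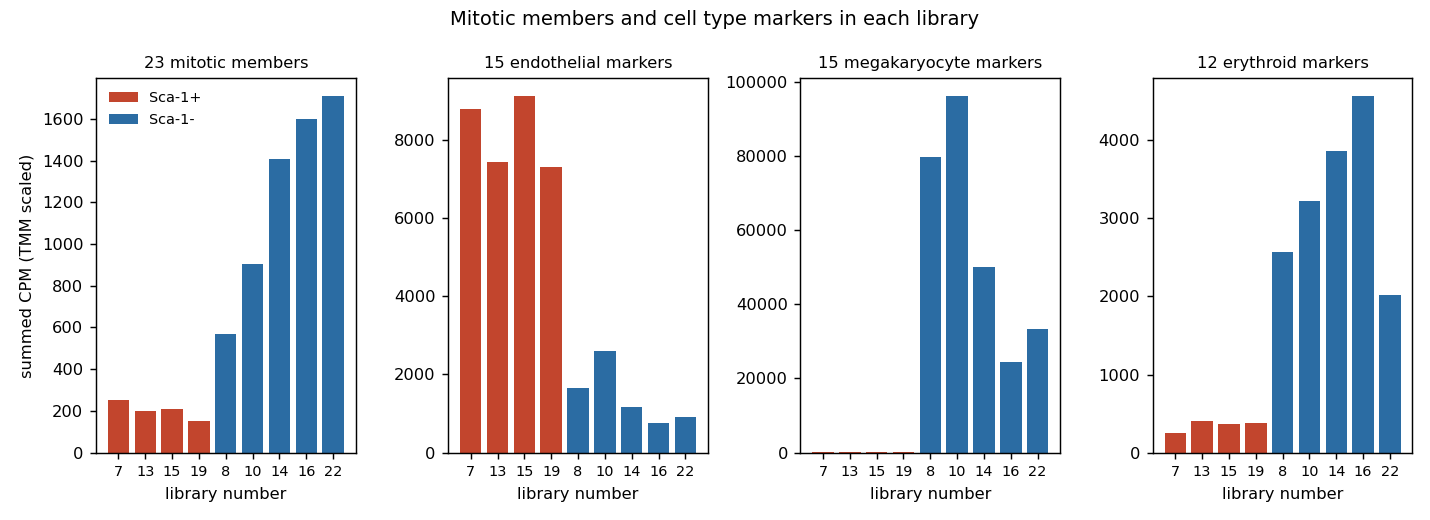
Summed CPM (y axis, starting at 0, a separate scale in each panel) of the 23 mitotic members and of the endothelial, megakaryocyte and erythroid markers in each library (x axis), with Sca-1+ in red and Sca-1- in blue. With TMM scaling, the mitotic sum is 152 to 250 CPM in Sca-1+ libraries and 567 to 1708 CPM in Sca-1- libraries. Libraries 8 and 10 have the highest megakaryocyte and the lowest mitotic sums of the Sca-1- fraction.

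**Figure D4:**
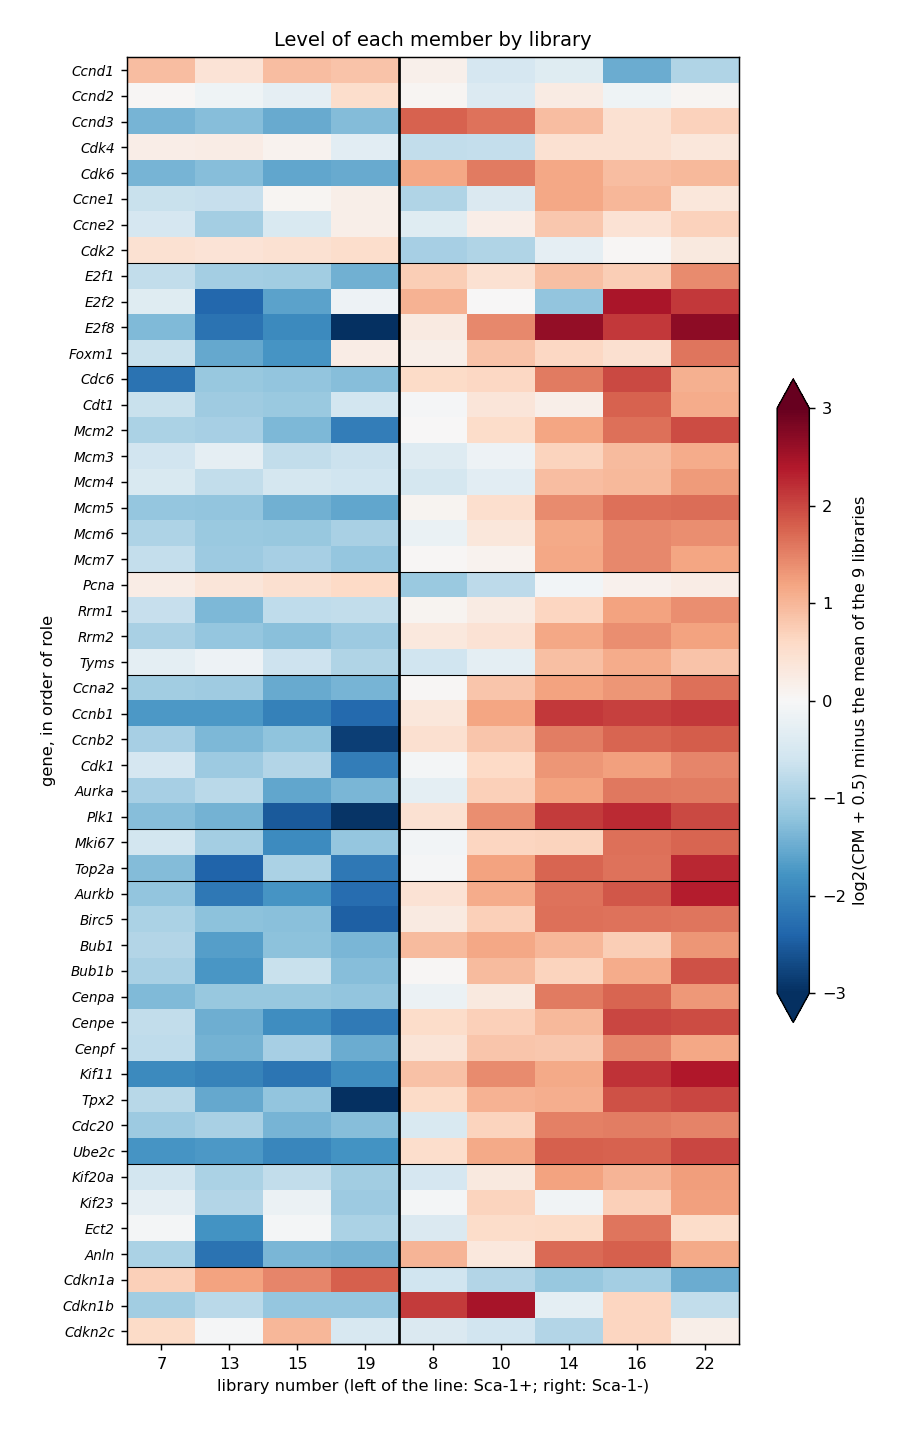
Level of each of the 50 members (rows, in order of role) in each library (columns, 4 Sca-1+ left and 5 Sca-1- right of the line), as log2(CPM + 0.5) minus the mean of the 9 libraries. The blocks from licensing to cytokinesis are below the mean in the Sca-1+ columns with the exception of Pcna (above it with this scaling, below Sca-1- when the endothelial markers are set equal), and the Sca-1- columns 14, 16 and 22 are mostly above columns 8 and 10.

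The wider machinery was read from 10 lists with 168 other cell cycle genes, of which 167 were tested and Cdkn2a was too low to test. Of these, 97 were lower and 11 higher in Sca-1+ cells (against 21.4% and 23.3% of all genes tested, shares that apply to each list below as well), and the median log2 fold change was -1.54. Kinetochore genes (19 of 23 lower) included the checkpoint proteins Kntc1 and Ttk, at 0 to 1.33 and 0 to 2.01 CPM in Sca-1+ libraries against 2.37 to 10.9 and 7.21 to 16.7 CPM. Of the mitotic kinesins and spindle genes 16 of 17 were lower, led by Ckap2l (log2 fold change -4.70, standard error 0.48) and by Kif14, which had 1, 0, 0 and 7 counts in the Sca-1+ libraries and 2.59 to 19 CPM in the Sca-1- libraries. For Kif14, Kntc1 and Ttk the fitted fold depends on libraries at or near 0 and is not given. Replicative polymerase and fork genes were lower in 19 of 26, among them Dut, which clears dUTP (-3.56), and the histone chaperone subunit Chaf1a (-3.10). Origin and helicase activation genes were lower in 10 of 17, with Mcm10 at -3.92 and Cdc45 at -2.53.

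Condensin and cohesin genes were lower in 10 of 16, as in Cdca5 (sororin, -3.85) and Sgo1 (shugoshin, -3.45), and Smc1a and Pttg1 (securin) were higher, with log2 fold changes of 0.54 and 1.27. The central spindle list had 5 of 10 genes lower, with the passenger complex subunits Incenp (-4.24) and Cdca8 (-3.19) in front. Cdc25, Wee1 and checkpoint kinase genes were lower in 6 of 11, led by Ccnf (-3.62) and the phosphatase Cdc25c (-2.94). In the Rb, E2F and DREAM list 6 of 15 were lower, including Mybl2 (-3.15) and Tfdp2 (-2.74), while the repressor E2f5 was higher (2.05).

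A pair of lists did not share the direction of the members. Of 15 genes of the anaphase-promoting complex and its partners, 2 were lower, the activator Fzr1 (-2.84) and the inhibitor Fbxo5 (-2.17), 1 was higher (Ube2s, 0.92) and 12 passed in neither direction, fewer calls either way than the 21.4% and 23.3% of all genes, with a median log2 fold change of 0.27. Among the 17 other inhibitors and genes of quiescence tested, 7 were higher and 4 lower, where 23.3% and 21.4% of all genes were, so that the lower share is near the background. Cdkn1c (p57), an inhibitor known from quiescent cells, was at 467, 519, 509 and 568 CPM in Sca-1+ libraries and at 77.3, 6.63, 11, 34.8 and 12.7 CPM in Sca-1- libraries (log2 fold change 4.18, standard error 0.69, edgeR adjusted p = 0.00082). Hes1, a Notch target and transcriptional repressor, was at 261 to 398 against 17.8 to 43.8 CPM (log2 fold change 3.26, standard error 0.29). Cdkn2d (p19), an inhibitor of Cdk4 and Cdk6, was lower in Sca-1+ cells (log2 fold change -3.03), and the ratio of Cdkn1c to Cdkn2d per kilobase was 5.01 to 7.17 in Sca-1+ libraries and 0.0057 to 0.104 in Sca-1- libraries. With the endothelial markers set equal, edgeR called 166 of the 167 genes lower and none higher. No gene kept a positive log2 fold change, the higher genes named here included. Which gene was not called lower is not given here.

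**Figure D5:**
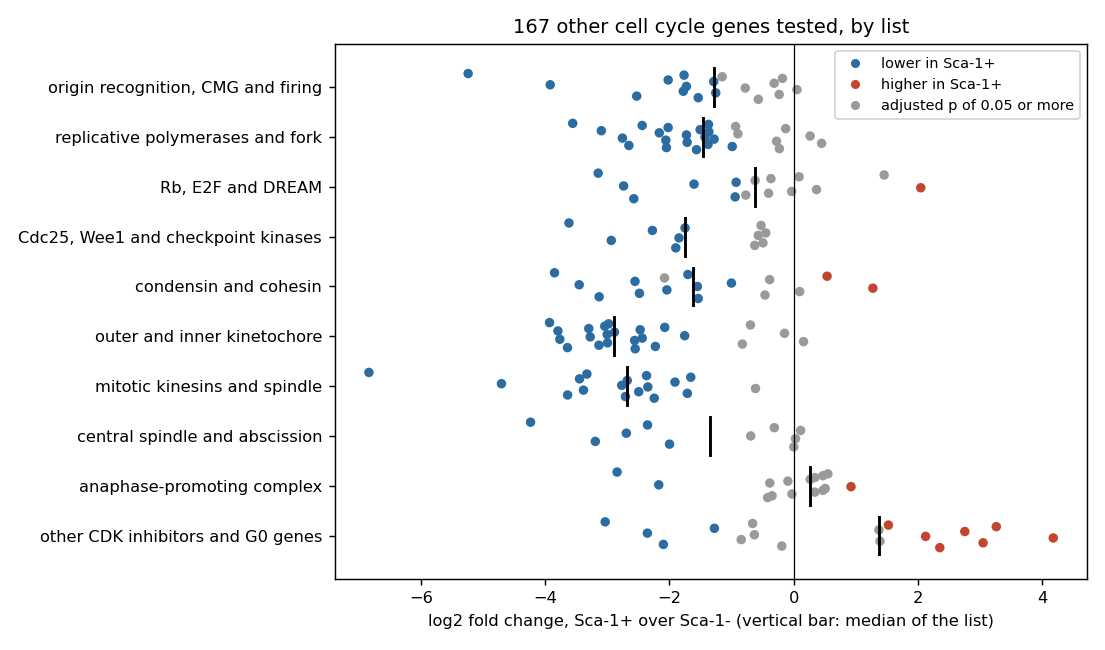
Log2 fold change of Sca-1+ over Sca-1- (x axis) of 167 other cell cycle genes, 1 point a gene, in 10 lists (y axis), with the median of each list as a vertical bar and colours for the call, with TMM scaling. The kinetochore and kinesin lists have medians of -2.88 and -2.68, and the anaphase-promoting complex and the other inhibitors have medians of 0.27 and 1.37, directions that turn negative when the endothelial markers are set equal.

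Some of these counts carry a limit of the counting itself. Exons of 17 members overlap those of another gene, the longest overlaps being Kif20a with Cdc23 (1271 bases) and Ccnd1 with LTO1 (1100 bases), both on opposite strands. The libraries do not mark strand, so reads in these stretches cannot be assigned to one gene with certainty. Pseudogene copies of Pcna, Ccnd3 and Ccnb2 in the table drew at most 103, 41 and 25 counts in a library.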

How the data were processed

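Libraries were made from 2 ng of total RNA with a full-length kit that primes on poly(A) and adds no molecular identifiers. The authors deposited raw read counts per gene, not normalized, for all 9 libraries, and the submitters' processing notes name STAR, featureCounts and mm10. Versions, annotation and strand setting are not given in the sources used here. Every sample column was used.

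The tests ran in edgeR 4.0.16 under R 4.3.3 (filterByExpr at 10 counts and a total of 15, TMM, quasi-likelihood F-test, two-sided, Benjamini-Hochberg over all genes tested, threshold 0.05), after the step was tested on simulated data. Of 26424 genes with a count, 15937 were tested. Levels are TMM-scaled CPM, and levels between genes were compared per kilobase of merged exons (GENCODE M21, GRCm38). DESeq2 1.42.0, limma 3.58.1 (voom), other scalings and filters, blocks and leaving out each library were alternatives. Plots used matplotlib 3.10.9.

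The members and lists were chosen with earlier results of these data known. Named genes are all members, the 2 genes of each other list with the largest absolute log2 fold change that passed the test without overlap and reached 2 in average log2 CPM, and the sort genes. Other genes named, and the ratios, were chosen after their values were seen. Levels outside a test carry counting error of the depth given in the report.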

Additional observations from a re-analysis of the deposited data

Results flagged for a closer look

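Each fraction's log2 CPM of each member (100 groups of 4 or 5 libraries) was searched for a library far from the rest by Dixon's test, and 3 were found, where chance gives about 1 in 20 groups. Ccnd1 was at 4.77 in Sca-1+ library 13, with the other 3 libraries at 5.24 to 5.31. Rrm1 was at 5.37 in the same library, with the others at 5.97 to 6.04. Cdc6 was at 2.18 in Sca-1+ library 7, with the others at 3.19 to 3.34. In each case the library was the lowest of the Sca-1+ fraction. Without that library the calls of Ccnd1, Rrm1 and Cdc6 were kept.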

How the results depend on the processing

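Of the 42 members called, 29 kept their direction and call in all 20 alternative settings. Leaving out 1 library gave 35 to 41 members lower and 2 to 3 higher, from 39 and 3. Scaled to the endothelial markers (log2 shift of the median of all genes -4.37), edgeR called 50 members lower and 0 higher (also 0 at an unadjusted p under 0.05), 14277 genes in all, and 166 other cell cycle genes lower and 0 higher (0 unadjusted), and 98.4% of all calls were lower against 47.9% in TMM. DESeq2 and limma voom were not run with this scaling and called 3 members higher each with their own. In this setting Ccnd1 was at -3.14, Ccnd2 -4.23, Cdk4 -4.23, Cdk2 -3.50, Pcna -3.59, Cdkn1a -2.12 and Cdkn2c -3.79. With library size only, the median of all genes moved by 0.36, 36.9% of calls were lower, and 32 members were lower and 2 higher, with Foxm1, Cdt1, Mcm3, Mcm4, Tyms, Kif20a, Kif23 and Cdk2 no longer called. Without Sca-1- library 8 that median moved by -0.11 and with the block of 6 libraries by 0.12.

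Consecutive end numbers (7 and 8, 13 and 14, 15 and 16) as a replicate block gave 29 members lower and 1 higher, 4340 genes in all and 57 other cell cycle genes lower. The same 6 libraries with no replicate block gave 35 and 1, and 5360 genes in all. The pairs' deviations correlated at 0.147, 0.148 and 0.042, not all over 0.1, and the numbers were not taken as pairs in the main test. Each of the 6 libraries nevertheless correlated best with its own number. The pair at 0.042 is 15 and 16, so these correlations cannot decide whether the numbers are pairs. Of these labels, 15 and 16 share a mouse number, and 13 and 14 share a term that library 22 also carries. The block for libraries 15 and 16 gave 39 members lower and 2 higher.

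Ccnd2 (0.09) and Cdk4 (0.01), which were not called, changed sign. Ccnd2 was at -0.00 with DESeq2 size factors and -0.0001 in DESeq2, -0.19 with the replicate block and -0.19 without it in 6 libraries. Cdk4 was at -0.0578 with DESeq2 size factors, -0.0302 with the upper quartile and -0.0579 in DESeq2. Leaving out 1 library gave -0.10 to 0.19 for Ccnd2 and -0.21 to 0.12 for Cdk4. Members called in fewer settings were Ccnd1, Cdk2, Foxm1, Cdt1, Mcm3, Mcm4, Tyms, Cdk1, Mki67, Kif20a, Kif23 and Cdkn1b. Cdkn1a was called in every setting, but as lower when the endothelial markers were set equal. Ccne2, Ect2 and E2f2 were called in 8, 6 and 3 of the settings. The cause of these changes was not tested. Depth limits 2 members, E2f2 and E2f8, each with a Sca-1+ library at or under 3 counts.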
